A study of Mus musculus with 6 samples.

Results

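Complexes II to V are the complexes of oxidative phosphorylation other than complex I. Their nuclear-encoded subunits were followed here at the transcript level in 2 fractions of mouse bone marrow cells. The genes were taken by symbol: Sdha to Sdhd for complex II, symbols starting with Uqcr and Cyc1 for complex III, Cox4 to Cox8 for complex IV and Atp5 for complex V. This took 55 of the 30803 rows of the deposited tables. Of these, 45 were subunit genes, namely 4 of complex II, 9 of complex III, 15 of complex IV and 17 of complex V, and 10 were pseudogenes or pseudogene-like copies. The symbols Cox7b2, Cox8b and Cox8c, which the rule would take, were not among these rows.

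The label of the cells was hematopoietic stem cell (HSC), the source of all blood lineages. Cells came from bone marrow of WT mice aged 5 months and had been sorted into an MHCII-hi and an MHCII-lo fraction, with no treatment named and with 3 libraries per fraction. The title of every library carries the label Ctrl. MHC class II proteins show peptides to CD4+ T cells. The question of the study, as far as its title gives it, was how the fractions differ in transcriptome under homeostasis. The gate of the sort was not given in the sources used here, and read depth is unknown. A library's values summed to 333432 ± 92.5 FPKM in MHCII-hi and 306496 ± 515 FPKM in MHCII-lo (SD). Whether each library stands for its own animal is not stated either, so a p-value below reflects only how much the libraries of a fraction vary, and that variation may be technical (n = 3 per group throughout).

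The respiratory chain passes electrons to oxygen and stores the energy as a proton gradient across the inner mitochondrial membrane. Complex II, or succinate dehydrogenase, feeds electrons from succinate into ubiquinone, complex III hands them from ubiquinol to cytochrome c, complex IV passes them to oxygen, and complex V, the ATP synthase, uses the gradient to make ATP. Complex II is encoded wholly in the nucleus, whereas complexes III, IV and V combine nuclear subunits with some encoded in mitochondrial DNA. Long-term HSCs are known for low mitochondrial respiration, and their differentiating progeny for more of it.

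Nearly all of these transcripts were lower in the MHCII-hi fraction. Of the 43 subunit genes that averaged 1 FPKM or more (fragments per kilobase, relative to the size of the library), 42 fell and 1, Cox6a2, rose, at a limma adjusted p under 0.05 over all 12295 tested genes. Over all tested genes, 40.5% were called lower and 27.2% higher, that is 4982 and 3348 genes, and with median-of-ratios scaling, which moved the median change of all genes to -0.00, 4001 and 4090 genes. In the 42 genes that fell, each MHCII-hi library lay below each MHCII-lo library, a pattern found in 43.3% of all tested genes. The median subunit stood at 61.8% of its MHCII-lo level, a log2 change of -0.68 on the log2(FPKM + 1) scale, against a median of -0.08 over all tested genes. A fall of 1 or more on that scale was seen in 7 subunit genes, Atp5e, Cox7a2, Atp5g3, Atp5k, Atp5mpl, Cox5a and Cox6c, and in 1.46% of all tested genes. In bulk libraries such as these, fewer cells of a type and less RNA per cell cannot be told apart. None of the tested subunits depended on the minimum level for its test, since the lowest library value among them was 3.37 FPKM, for Cox6a2 in MHCII-lo.

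**Figure D1:**
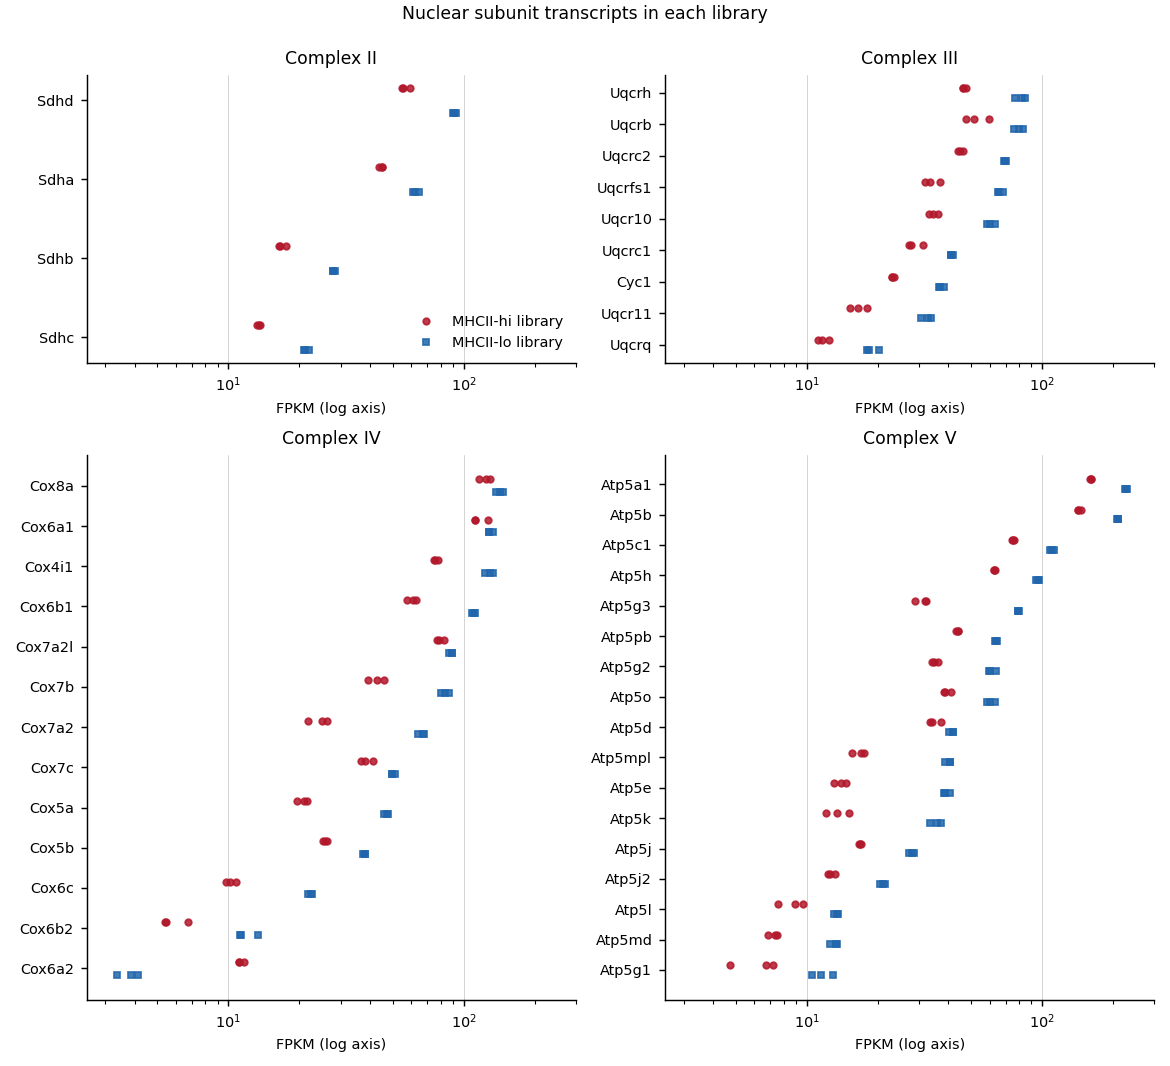
FPKM (log axis) of each tested subunit gene of complexes II, III, IV and V, genes sorted by their MHCII-lo level, with 1 red circle per MHCII-hi library and 1 blue square per MHCII-lo library (3 each). The circles lie left of the squares in each gene but Cox6a2, where they lie to the right, at 11.1 to 11.6 FPKM in MHCII-hi against 3.37 to 4.15 FPKM in MHCII-lo.

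The spread between libraries was smaller than the difference between fractions in most subunit genes, with Cox6a1 as the closest case. The coefficient of variation (CV) of a subunit over 3 libraries had a median of 4.38% in MHCII-hi and 2.60% in MHCII-lo. It was highest for Atp5g1 in MHCII-hi, at 20.9%, and for Cox6a2 in MHCII-lo, at 10.4%. The 4 most abundant transcripts per length were the same in both fractions, in the order Atp5a1, Atp5b, Cox8a and Cox6a1. Further down the order of FPKM levels changed. Cox7a2l ranked 5 in MHCII-hi and 10 in MHCII-lo, while Atp5g3 ranked 23 in MHCII-hi and 14 in MHCII-lo and Cox7a2 ranked 26 in MHCII-hi and 16 in MHCII-lo, among 45 subunits.

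Promoters are shown for the 3 subunit genes that fell most and the 3 that fell least, to set their proximal sequence side by side. The sequences are RefSeq's on GRCm38.p6, from 250 bases before to 50 bases after the annotated start, written 5′ to 3′ on the gene's strand. RefSeq's table held 34 of the 45 subunit genes. Capitals mark the core of the NRF1 site, GCGCNTGCGC, or of the ETS site, CCGGAAG, each searched on both strands, so that a match on the other strand appears as the reverse complement. NRF1 and the ETS factor GABP are the classical activators of nuclear respiratory genes.
Atp5e (chr2:174464052-174464351, minus strand): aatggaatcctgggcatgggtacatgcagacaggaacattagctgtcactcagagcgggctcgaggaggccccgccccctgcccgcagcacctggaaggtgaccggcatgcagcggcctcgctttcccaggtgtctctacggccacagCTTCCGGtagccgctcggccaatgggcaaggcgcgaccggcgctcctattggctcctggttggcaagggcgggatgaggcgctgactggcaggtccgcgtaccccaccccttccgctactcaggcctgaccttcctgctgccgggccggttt
Cox7a2 (chr9:79759804-79760103, minus strand): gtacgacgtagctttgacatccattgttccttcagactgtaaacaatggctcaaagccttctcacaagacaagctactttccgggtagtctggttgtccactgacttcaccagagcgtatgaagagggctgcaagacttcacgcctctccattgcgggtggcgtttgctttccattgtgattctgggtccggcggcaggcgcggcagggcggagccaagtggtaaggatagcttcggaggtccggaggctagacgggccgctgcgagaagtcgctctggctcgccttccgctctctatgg
Atp5g3 (chr2:73911277-73911576, minus strand): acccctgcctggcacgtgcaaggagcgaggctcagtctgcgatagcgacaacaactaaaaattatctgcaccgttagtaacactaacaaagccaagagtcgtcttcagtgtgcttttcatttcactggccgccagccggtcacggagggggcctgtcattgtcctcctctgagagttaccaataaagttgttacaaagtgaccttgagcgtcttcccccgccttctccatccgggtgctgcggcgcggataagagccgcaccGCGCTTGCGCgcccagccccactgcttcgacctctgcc
Cox8a (chr19:7217567-7217866, minus strand): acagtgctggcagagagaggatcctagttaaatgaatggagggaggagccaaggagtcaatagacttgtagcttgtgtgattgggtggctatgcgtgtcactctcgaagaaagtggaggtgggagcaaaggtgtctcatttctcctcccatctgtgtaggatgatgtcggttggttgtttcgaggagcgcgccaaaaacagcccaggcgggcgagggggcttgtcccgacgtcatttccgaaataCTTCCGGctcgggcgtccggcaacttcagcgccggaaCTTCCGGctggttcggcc
Cox7a2l (chr17:83514284-83514583, minus strand): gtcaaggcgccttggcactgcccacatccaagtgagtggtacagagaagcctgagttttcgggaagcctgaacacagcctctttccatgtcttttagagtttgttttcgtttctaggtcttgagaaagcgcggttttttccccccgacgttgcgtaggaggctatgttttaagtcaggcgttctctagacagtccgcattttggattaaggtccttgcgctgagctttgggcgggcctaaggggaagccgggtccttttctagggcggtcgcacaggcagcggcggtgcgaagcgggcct
Cox6a1 (chr5:115348909-115349208, minus strand): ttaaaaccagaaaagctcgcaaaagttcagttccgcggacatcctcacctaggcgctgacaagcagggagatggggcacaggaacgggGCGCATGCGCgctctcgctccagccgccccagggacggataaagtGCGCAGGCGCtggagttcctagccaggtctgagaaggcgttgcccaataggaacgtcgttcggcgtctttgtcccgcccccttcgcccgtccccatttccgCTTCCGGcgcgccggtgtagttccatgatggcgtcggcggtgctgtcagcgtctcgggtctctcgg

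Among the genes that fell most, Atp5e held 1 ETS core on the minus strand of the window, Atp5g3 held 1 NRF1 core and Cox7a2 held neither. Among those that fell least, Cox8a held 2 ETS cores, Cox6a1 held 1 ETS core and NRF1 cores at 2 places, and Cox7a2l held neither. Matches were thus present and absent in both sets. The NRF1 core was found in 10 of the 34 subunit genes with a promoter (29.4%) and in 5.19% of all 27025 genes with a promoter. The ETS core was found in 13 of 34 (38.2%) and in 9.93%. A gene was counted if any of its windows held a match, while 1 window per gene is printed above. No NRF1 core overlapped an ETS core in the windows printed. A match is a description of the letters and not evidence of binding.

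Complex II fell as a block, with its 4 genes within a narrow range of changes, from -0.70 to -0.47 and a median of -0.66 on the log2 scale. Sdha, the flavoprotein that oxidizes succinate, had 43.9, 45.0 and 45.0 FPKM in the MHCII-hi libraries, against 60.8, 64.4 and 62.1 FPKM in the MHCII-lo libraries. It kept 71.5% of its MHCII-lo level and fell by 0.47 ± 0.03 (SE) on the log2 scale, the smallest fall in the complex (limma, adjusted p = 9.20e-06). Sdhb, the iron-sulfur protein next in the electron path, had 16.6, 16.4 and 17.6 FPKM in the MHCII-hi libraries, against 27.8, 27.9 and 28.3 FPKM in the MHCII-lo libraries. The groups did not overlap, and Sdhb fell by 0.70 ± 0.03 (SE), the largest fall in the complex (limma, adjusted p = 3.49e-06). The membrane anchors, which carry the ubiquinone site, changed by similar amounts. Sdhc measured 13.4, 13.3 and 13.6 FPKM in the MHCII-hi libraries, against 20.9, 21.2 and 22.0 FPKM in the MHCII-lo libraries, and Sdhd measured 55.4, 59.2 and 54.8 FPKM in the MHCII-hi libraries, against 90.5, 91.2 and 92.4 FPKM in the MHCII-lo libraries. They fell by 0.63 ± 0.03 (SE) and 0.68 ± 0.03 (SE) (limma, adjusted p = 3.84e-06 and 3.23e-06), with no overlap of the groups in either gene.

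All 9 nuclear genes of complex III fell, with changes from -0.95 to -0.52 and a median of -0.66. The electron carriers were led by Uqcrfs1, the Rieske iron-sulfur protein, with 36.8, 31.7 and 33.3 FPKM in the MHCII-hi libraries, against 64.8, 65.5 and 68.3 FPKM in the MHCII-lo libraries. Each MHCII-hi value was far below the lowest MHCII-lo value, and the gene fell by 0.95 ± 0.05 (SE) (limma, adjusted p = 8.70e-06). Cyc1, the cytochrome c1 haem protein, averaged 23.2 ± 0.200 FPKM in MHCII-hi and 37.2 ± 1.12 FPKM in MHCII-lo (SD), a fall of 0.66 ± 0.03 (SE) (limma, adjusted p = 2.48e-06). The core proteins, which face the matrix, fell less than these carriers. Uqcrc1 had 27.3, 27.7 and 31.2 FPKM in the MHCII-hi libraries, against 41.2, 41.1 and 42.0 FPKM in the MHCII-lo libraries, and fell by 0.52 ± 0.05 (SE) (limma, adjusted p = 0.000115). Uqcrc2 averaged 45.0 ± 1.03 FPKM in MHCII-hi and 69.6 ± 0.550 FPKM in MHCII-lo (SD) and fell by 0.62 ± 0.02 (SE) (limma, adjusted p = 1.30e-06).

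The 5 small subunits of complex III, which surround the catalytic core, had a median change of -0.79, against -0.57 in the core proteins. This contrast was gone with the dependence on transcript length and GC content removed, at -0.55 in the small subunits and -0.58 in the core proteins. Uqcr11 had 18.1, 16.4 and 15.3 FPKM in the MHCII-hi libraries, against 30.6, 32.7 and 33.6 FPKM in the MHCII-lo libraries, a fall of 0.92 ± 0.06 (SE) (limma, adjusted p = 2.07e-05). Uqcr10 averaged 34.5 ± 1.53 FPKM in MHCII-hi and 60.7 ± 2.52 FPKM in MHCII-lo (SD), a fall of 0.80 ± 0.04 (SE) (limma, adjusted p = 6.40e-06). The hinge protein gene Uqcrh averaged 46.6 ± 0.665 FPKM in MHCII-hi and 81.4 ± 4.09 FPKM in MHCII-lo (SD), a fall of 0.79 ± 0.04 (SE) (limma, adjusted p = 3.82e-06). These 3 genes had larger falls than the remaining small subunits. Uqcrb, part of the ubiquinone-binding region, spread most, with 47.4, 51.5 and 59.7 FPKM in the MHCII-hi libraries, against 75.7, 82.9 and 79.5 FPKM in the MHCII-lo libraries. Its groups did not overlap, and it fell by 0.58 ± 0.08 (SE) (limma, adjusted p = 0.000709). Uqcrq averaged 11.8 ± 0.684 FPKM in MHCII-hi and 18.9 ± 1.24 FPKM in MHCII-lo (SD) and fell by 0.64 ± 0.06 (SE) (limma, adjusted p = 8.38e-05). With the dependence on transcript length and GC content removed, Uqcrb changed by -0.29 and Uqcrq by -0.41, both still past the threshold (limma, adjusted p = 0.0185 and 0.000882).

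Complex IV was the most uneven of the 4. Of its 13 tested genes 12 fell and 1 rose, the median change was -0.75, and the middle of the distribution (25th to 75th percentile) ran from -0.95 to -0.21, against -0.69 to -0.59 in complex II, -0.80 to -0.62 in complex III and -0.82 to -0.55 in complex V. The largest fall was in Cox7a2, the common isoform of subunit 7A, with 26.1, 21.9 and 25.1 FPKM in the MHCII-hi libraries, against 67.2, 63.8 and 68.1 FPKM in the MHCII-lo libraries. The MHCII-hi level was 36.7% of the MHCII-lo level and the groups lay far apart (change -1.41 ± 0.07 SE; limma, adjusted p = 3.31e-06). Cox5a, a matrix-facing subunit, had 21.0, 21.6 and 19.6 FPKM in the MHCII-hi libraries, against 46.0, 47.5 and 47.8 FPKM in the MHCII-lo libraries. It fell by 1.15 ± 0.04 (SE) to 44.1% of its MHCII-lo level (limma, adjusted p = 8.51e-07). Cox6c, a small membrane subunit, had 10.2, 10.8 and 9.75 FPKM in the MHCII-hi libraries, against 22.5, 22.6 and 21.8 FPKM in the MHCII-lo libraries, a fall of 1.05 ± 0.04 (SE) (limma, adjusted p = 1.69e-06). In none of these genes did the groups overlap.

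At the other end of complex IV stood 3 abundant transcripts that kept most of their level. Cox8a, the common isoform of subunit 8, had 124, 116 and 129.9 FPKM in the MHCII-hi libraries, against 143, 146 and 138 FPKM in the MHCII-lo libraries. Its groups did not overlap, but the fall was 0.21 ± 0.04 (SE), to 86.7% of the MHCII-lo level (limma, adjusted p = 0.00525). Cox7a2l, a subunit 7A relative that joins complexes III and IV into supercomplexes, had 78.2, 82.2 and 77.1 FPKM in the MHCII-hi libraries, against 88.9, 89.2 and 86.9 FPKM in the MHCII-lo libraries, a fall of 0.16 ± 0.03 (SE) (limma, adjusted p = 0.00229). Cox6a1, the common isoform of subunit 6A, had 112, 127 and 112 FPKM in the MHCII-hi libraries, against 128, 128 and 133 FPKM in the MHCII-lo libraries. The highest MHCII-hi library nearly reached the lowest MHCII-lo library, at 127.45 FPKM in MHCII-hi and 127.52 FPKM in MHCII-lo, and the fall of 0.15 ± 0.05 (SE) was close to the threshold (limma, adjusted p = 0.0415). These calls were not firm. With median-of-ratios scaling all 3 lost the threshold (limma, adjusted p = 0.0622 for Cox8a, 0.0960 for Cox7a2l and 0.411 for Cox6a1), and Cox6a1 lost it under 11 of 16 alternatives, including the removal of any single library but MHCII-hi replicate 2 (adjusted p of 0.0702 to 0.119). With the dependence on transcript length and GC content removed, Cox7a2l changed by only -0.02 and also lost its call (limma, adjusted p = 0.610).

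The other common subunits of complex IV lay between these extremes. Cox4i1, a core-contacting subunit that binds regulatory nucleotides, had 78.1, 75.01 and 75.7 FPKM in the MHCII-hi libraries, against 134, 129 and 123 FPKM in the MHCII-lo libraries, a fall of 0.75 ± 0.03 (SE) (limma, adjusted p = 2.52e-06). Cox6b1, on the side of the intermembrane space, averaged 60.4 ± 2.61 FPKM in MHCII-hi and 110.2 ± 1.33 FPKM in MHCII-lo (SD) and fell by 0.86 ± 0.03 (SE) (limma, adjusted p = 1.43e-06). Cox7b averaged 42.6 ± 3.31 FPKM in MHCII-hi and 83.4 ± 3.51 FPKM in MHCII-lo (SD) and fell by 0.95 ± 0.06 (SE) (limma, adjusted p = 1.30e-05). All 3 fell by more than the zinc-binding subunit Cox5b and the small subunit Cox7c, which changed by -0.53 and -0.36 (limma, adjusted p = 4.02e-06 and 0.000239). Once the dependence on length and GC content was removed, the change of Cox7c was -0.09 and did not pass (limma, adjusted p = 0.103).

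**Figure D2:**
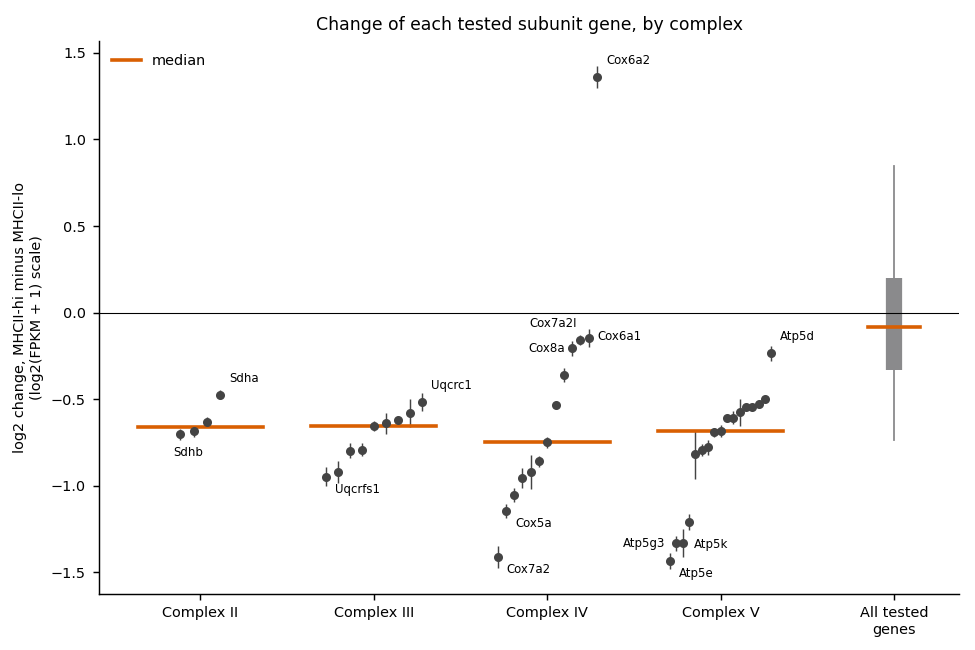
Change of each tested subunit gene (MHCII-hi minus MHCII-lo, log2(FPKM + 1) scale) with its standard error, sorted within complexes II, III, IV and V, and orange lines at the medians (-0.66, -0.66, -0.75 and -0.68). The grey bar shows all 12295 tested genes by their 25th to 75th percentile (-0.33 to 0.20), the thin line by their 5th to 95th (-0.74 to 0.85). Complexes II and III are compact, while complex IV reaches from -1.41 (Cox7a2) to 1.36 (Cox6a2) and complex V from -1.43 (Atp5e) to -0.23 (Atp5d).

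The tissue isoforms of complex IV included the 1 subunit gene that rose. Cox6a2, the isoform of subunit 6A known from heart and skeletal muscle, had 11.1, 11.1 and 11.6 FPKM in the MHCII-hi libraries, against 3.37, 3.85 and 4.15 FPKM in the MHCII-lo libraries. Every MHCII-hi library was far above every MHCII-lo library, at 297% of the MHCII-lo mean, a change of 1.36 ± 0.06 (SE) that kept its call under all 16 alternatives, at 1.30 to 1.57 (limma, adjusted p = 3.80e-06). The level stayed low beside Cox6a1. Cox6a2 made up 8.81 ± 0.705% of the summed FPKM of both 6A isoforms in MHCII-hi and 2.84 ± 0.232% in MHCII-lo (SD), and the sum itself was 128 ± 8.83 FPKM in MHCII-hi and 133 ± 3.59 FPKM in MHCII-lo. The groups overlapped in that sum.

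Cox6a2 (GENCODE M21, GRCm38 chromosome 7, 128205435 to 128206387, minus strand) lies inside the gene model of the integrin gene Itgad on the opposite strand, with 70 shared exon bases. Itgad was listed at 1.31, 0.78 and 0.97 FPKM in the MHCII-hi libraries, against 0.40, 0.48 and 0.32 FPKM in the MHCII-lo libraries. The library kit keeps strand, but the strand setting of the counting was not given in the sources used here. Exons of Uqcrc2, Atp5j, Atp5o, Atp5pb, Cox5a, Cox6c, Cox4i1, Atp5l and Atp5a1 likewise share 129 to 504 bases with a gene on the opposite strand, and reads of such pairs cannot be told apart if strand was not used. In mice Cox6a2 has also been reported among transcripts of plasmacytoid dendritic cells, and markers of these cells, chosen after their values were seen, moved in both directions. Of 11 tested markers 9 rose and 2 fell, beside 27.2% of all tested genes called higher and 40.5% called lower. Ccr9 and Klk1 reached the minimum through MHCII-hi alone. The summed level of the list was 239.6 to 246 FPKM in MHCII-hi and 154 to 157 FPKM in MHCII-lo. Siglech, a defining surface marker, averaged 15.01 ± 0.0737 FPKM in MHCII-hi and 6.48 ± 0.286 FPKM in MHCII-lo (SD), and Spib, a transcription factor shared with B cells, averaged 32.7 ± 0.677 FPKM in MHCII-hi and 5.06 ± 0.137 FPKM in MHCII-lo (SD). The 2 that fell were Bst2, at 47.4 FPKM in MHCII-hi against 53.2 FPKM in MHCII-lo, and Irf8, at 40.8 FPKM in MHCII-hi against 51.9 FPKM in MHCII-lo, a surface protein and a transcription factor that these cells are also known for. The part of such cells in the Cox6a2 result was not tested.

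Of the other tissue isoforms, only Cox6b2, known from testis, reached the minimum level. It had 6.77, 5.37 and 5.46 FPKM in the MHCII-hi libraries, against 13.4, 11.2 and 11.3 FPKM in the MHCII-lo libraries, a fall of 0.92 ± 0.10 (SE) (limma, adjusted p = 0.000181), so its share of subunit 6B stood at 8.88 ± 1.43% in MHCII-hi and 9.81 ± 0.838% in MHCII-lo (SD). Cox6b2 and Cox6b1 thus fell side by side. Cox4i2, known from lung, was listed at 0, 0.14 and 0.25 FPKM in MHCII-hi, against 0.41, 0.54 and 0.57 FPKM in MHCII-lo. Cox7a1, the heart and muscle isoform of 7A, was listed at 0.64, 0 and 0.18 FPKM in MHCII-hi, against 0.24, 0.53 and 0.31 FPKM in MHCII-lo. Both were under the minimum and not tested, and the groups overlapped for Cox7a1. Within the 7A family the balance moved, since Cox7a2 fell and Cox7a2l kept most of its level. Cox7a2l held 76.3 ± 2.40% of the family's FPKM in MHCII-hi and 57.0 ± 1.09% in MHCII-lo (SD), with no overlap of the libraries.

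**Figure D3:**
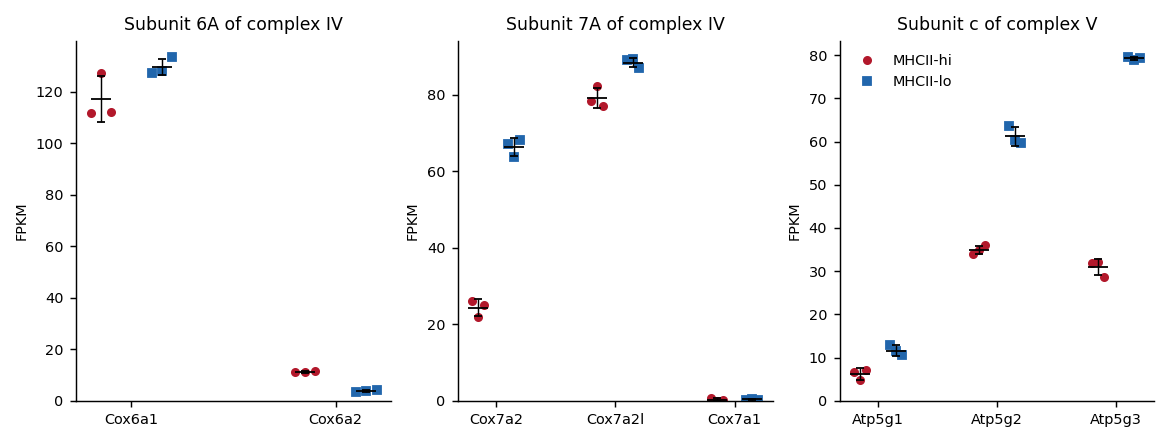
FPKM of the isoforms of subunit 6A and subunit 7A of complex IV and of the genes for subunit c of complex V, with 1 red circle per MHCII-hi library and 1 blue square per MHCII-lo library, and bars for the mean and SD (n = 3). Cox6a2 is higher in MHCII-hi while Cox6a1 nearly overlaps. Cox7a2 and Atp5g3 fall to 24.4 and 30.9 FPKM in MHCII-hi, against 66.3 and 79.2 FPKM in MHCII-lo, and Cox7a2l changes little.

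Complex V had 17 nuclear genes, and all of them fell, with a median change of -0.68. Its catalytic F1 part held both extremes. Atp5e, the epsilon subunit of the central stalk, had 13.1, 14.0 and 14.7 FPKM in the MHCII-hi libraries, against 38.5, 38.8 and 40.6 FPKM in the MHCII-lo libraries. At 35.5% of the MHCII-lo level, it showed the largest fall of the 43 tested subunits, 1.43 ± 0.05 (SE) (limma, adjusted p = 7.13e-07). Its neighbour in the stalk Atp5d, the delta subunit, had 37.3, 33.4 and 34.2 FPKM in the MHCII-hi libraries, against 41.7, 40.4 and 41.7 FPKM in the MHCII-lo libraries, and fell by 0.23 ± 0.04 (SE) (limma, adjusted p = 0.00278). No library of one group reached into the other, yet Atp5d kept 84.8% of its level, and with median-of-ratios scaling its change was -0.14 (limma, adjusted p = 0.0225). Atp5a1, the alpha subunit, had 162, 159 and 162 FPKM in the MHCII-hi libraries, against 228, 225 and 229.5 FPKM in the MHCII-lo libraries, a fall of 0.50 ± 0.02 (SE) (limma, adjusted p = 6.39e-07). The catalytic beta subunit Atp5b and the gamma subunit Atp5c1 changed by -0.55 and -0.54, close to Atp5a1.

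The c ring turns in the membrane as protons pass, and its subunit c is made from 3 genes that differ in their import sequence. Atp5g3 had 31.9, 32.1 and 28.8 FPKM in the MHCII-hi libraries, against 79.6, 78.8 and 79.3 FPKM in the MHCII-lo libraries, a fall of 1.33 ± 0.04 (SE) (limma, adjusted p = 6.90e-07). Atp5g2 averaged 34.9 ± 1.02 FPKM in MHCII-hi and 61.2 ± 2.17 FPKM in MHCII-lo (SD), a fall of 0.79 ± 0.03 (SE) (limma, adjusted p = 2.45e-06). Atp5g1, the least abundant, had 6.73, 4.74 and 7.18 FPKM in the MHCII-hi libraries, against 12.9, 11.4 and 10.5 FPKM in the MHCII-lo libraries, a fall of 0.82 ± 0.14 (SE) (limma, adjusted p = 0.00186). The 3 genes together gave 72.1 ± 0.491 FPKM in MHCII-hi and 152 ± 3.54 FPKM in MHCII-lo (SD). Their order changed between the fractions, with Atp5g2 the largest part in MHCII-hi, at 48.5 ± 1.65% against 40.2 ± 0.482% in MHCII-lo, and Atp5g3 at 42.9 ± 2.55% in MHCII-hi and 52.1 ± 1.07% in MHCII-lo.

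Small membrane subunits of complex V, several of which help dimers of the enzyme to form and shape the cristae, had a median change of -0.78. With the dependence on length and GC content removed this median was -0.52, while that of the F1 part was -0.54 with or without the removal. Atp5k, subunit e, had 12.0, 15.2 and 13.4 FPKM in the MHCII-hi libraries, against 35.8, 37.2 and 33.3 FPKM in the MHCII-lo libraries, a fall of 1.33 ± 0.08 (SE) (limma, adjusted p = 1.27e-05). Atp5mpl, a small proteolipid, had 17.01, 15.7 and 17.6 FPKM in the MHCII-hi libraries, against 38.7, 40.5 and 40.6 FPKM in the MHCII-lo libraries, a fall of 1.21 ± 0.05 (SE) (limma, adjusted p = 1.31e-06). In both genes the highest MHCII-hi library was far below the lowest MHCII-lo library. Atp5md, also called DAPIT, Atp5j2 (subunit f) and Atp5l (subunit g) changed by -0.78, -0.68 and -0.57. The peripheral stalk, which holds the F1 head still, was the most even module of complex V. Its 4 genes Atp5j, Atp5h, Atp5o and Atp5pb changed by -0.69, -0.61, -0.61 and -0.53, and limma adjusted p-values in these 7 genes lay between 6.39e-07 and 0.000616. Without the dependence on length and GC content, Atp5md changed by -0.49, Atp5l by -0.32 and Atp5h by -0.39, each still past the threshold (limma, adjusted p = 0.000121, 0.00923 and 1.13e-05).

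Summed per complex, transcript levels in MHCII-hi were between 60.2% and 68.9% of those in MHCII-lo. The nuclear subunits of complex II summed to 131 ± 2.29 FPKM in MHCII-hi and 203 ± 2.77 FPKM in MHCII-lo (SD). For complex III the sums were 293 ± 6.30 FPKM in MHCII-hi and 487 ± 8.67 FPKM in MHCII-lo, for complex IV 636 ± 7.29 FPKM in MHCII-hi and 923 ± 8.16 FPKM in MHCII-lo, and for complex V 722 ± 1.41 FPKM in MHCII-hi and 1150.4 ± 2.68 FPKM in MHCII-lo. The MHCII-hi sums were 64.7%, 60.2%, 68.9% and 62.7% of the MHCII-lo sums for complexes II, III, IV and V. Much of the complex IV sum came from Cox8a, Cox6a1 and Cox7a2l, which kept most of their level. They averaged 123, 117 and 79.2 FPKM in MHCII-hi and 142, 129.7 and 88.35 FPKM in MHCII-lo. The median change of complex IV genes, -0.75, was nonetheless the lowest among the complexes. Per library, the sum of complex III was 2.18 to 2.29 times that of complex II in MHCII-hi and 2.39 to 2.40 times in MHCII-lo. Complex IV reached 4.79 to 4.88 times the sum of complex II in MHCII-hi and 4.47 to 4.66 times in MHCII-lo, and complex V 5.40 to 5.58 times in MHCII-hi and 5.63 to 5.74 times in MHCII-lo. The libraries of the 2 fractions did not overlap in any of the 3 ratios. These comparisons between complexes are descriptions, with no test.

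The mitochondrially encoded partners of the same complexes moved the opposite way. All 6 rose, against 27.2% of all tested genes called higher. Their levels lay far above those of the nuclear subunits. mt-Cytb, the cytochrome b of complex III, had 3036, 3048 and 3049 FPKM in the MHCII-hi libraries, against 1932, 1944 and 1956 FPKM in the MHCII-lo libraries, a change of 0.65 (limma, adjusted p = 2.23e-08). Of the catalytic core of complex IV, mt-Co1 averaged 9601 ± 29.5 FPKM in MHCII-hi and 6569.6 ± 60.1 FPKM in MHCII-lo (SD), mt-Co2 3857 ± 150.2 FPKM in MHCII-hi and 2787 ± 114 FPKM in MHCII-lo and mt-Co3 2875 ± 20.8 FPKM in MHCII-hi and 2487 ± 13.7 FPKM in MHCII-lo, changes of 0.55, 0.47 and 0.21. The mitochondrially encoded genes of complex V, mt-Atp6 and mt-Atp8, changed by 0.71 and 1.10, and their annotated coordinates overlap, so their reads cannot be fully separated. In these 5 genes the limma adjusted p lay between 7.10e-09 and 4.37e-05.

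The ratio of mitochondrially encoded to nuclear summed FPKM was higher in MHCII-hi in each complex that has both. It was 10.4 ± 0.203 in MHCII-hi and 3.99 ± 0.0511 in MHCII-lo for complex III, 25.7 ± 0.450 in MHCII-hi and 12.8 ± 0.252 in MHCII-lo for complex IV, and 16.1 ± 0.0657 in MHCII-hi and 5.34 ± 0.0544 in MHCII-lo for complex V (SD). The libraries of the fractions lay far apart in all 3 ratios. FPKM is a share of the library, and other abundant transcripts differed. Immunoglobulin segments made up 8.30% of the FPKM in MHCII-hi and 0.415% in MHCII-lo, and mitochondrially encoded genes 12.5% in MHCII-hi and 8.87% in MHCII-lo. With totals made equal outside these genes, the median change of the 48 tested rows was -0.61, against -0.68. Ratios within a library do not depend on that total.

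**Figure D4:**
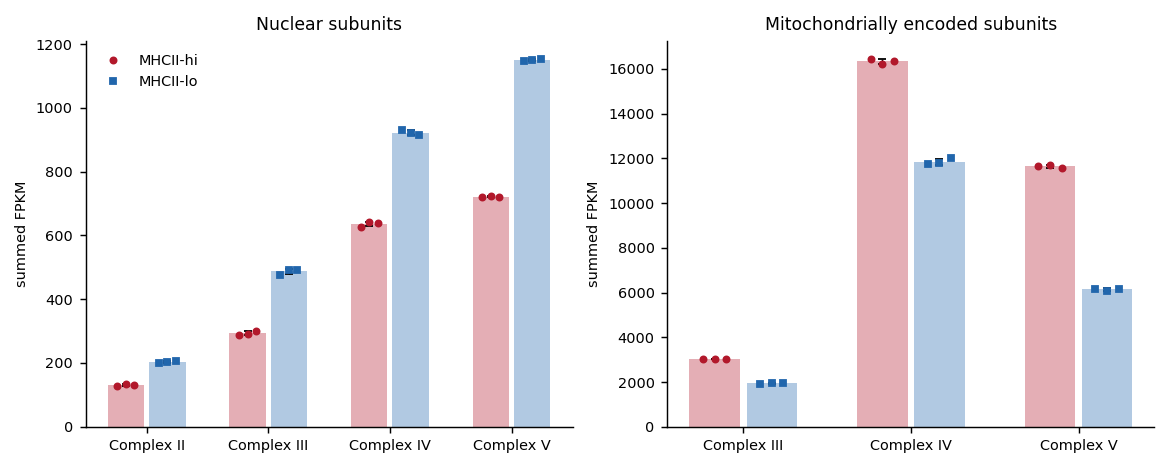
Summed FPKM of nuclear subunits (left, complexes II to V) and mitochondrially encoded subunits (right, complexes III to V), bars for the mean, whiskers for the SD and points for the 3 libraries of MHCII-hi (red) and MHCII-lo (blue), with separate linear axes from 0. Nuclear sums are lower in MHCII-hi in all 4 complexes and mitochondrially encoded sums higher in all 3, for example 722 FPKM in MHCII-hi against 1150.4 FPKM in MHCII-lo for the nuclear and 11649.6 FPKM in MHCII-hi against 6143 FPKM in MHCII-lo for the mitochondrially encoded subunits of complex V.

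Transcript length moved with the change, in the subunits as in other genes. Of subunits with transcripts under 600 bases 16 of 16 fell, with a median of -0.79, while 58.9% of 197 other tested protein-coding genes of that length fell, with a median of -0.40. From 600 to under 1000 bases the medians were -0.69 for 12 subunits and -0.32 for 725 other genes, from 1000 to under 2000 bases -0.63 for 12 subunits and -0.17 for 2585, and at 2000 bases or more -0.50 for 3 subunits and -0.04 for 6713. Subunits had the lower median in every length class. Across the 43 subunits, which share the same 6 libraries, Pearson's r of length and change was 0.21 and Spearman's rho 0.38, and without Cox6a2 0.35 and 0.40. With the dependence on length and GC content removed within each library, the median change of the subunits was -0.55. The part of RNA quality in these values was not tested.

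**Figure D5:**
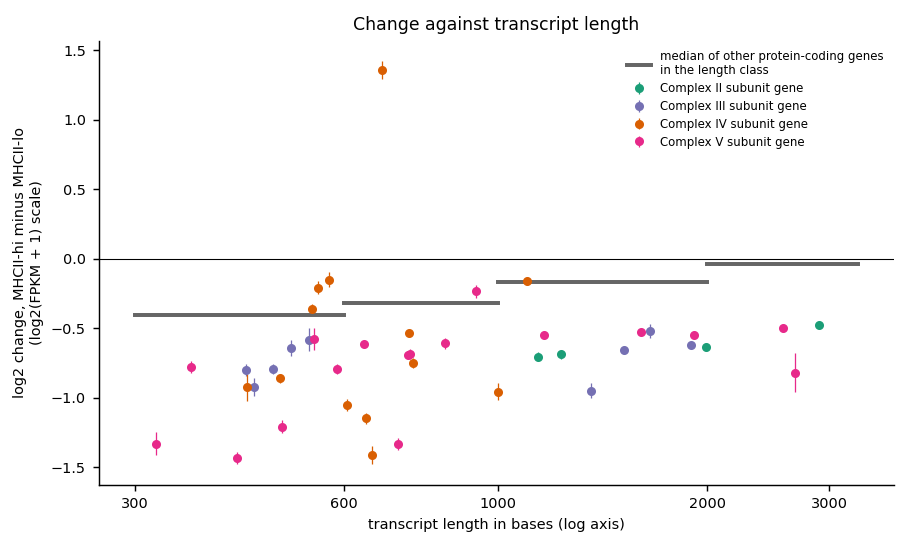
Change (MHCII-hi minus MHCII-lo, log2(FPKM + 1) scale, with SE) of the 43 tested subunit genes against transcript length in bases (log axis), coloured by complex, with grey lines at the median of other tested protein-coding genes per length class. Most subunits lie below the grey line of their class, and those above it are Cox6a2, Cox6a1, Cox8a, Cox7c, Cox7a2l and Atp5d.

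Pseudogene rows can share reads with their parent genes, and the treatment of such reads was not given in the sources used here. Of the 10 rows, 5 reached the minimum, of which 4 fell and 1 did not pass. Cox5b-ps, annotated as protein-coding, averaged 13.8 ± 0.291 FPKM in MHCII-hi and 23.0 ± 2.09 FPKM in MHCII-lo (SD), a change of -0.70 (limma, adjusted p = 7.18e-05). Cox6c2 averaged 2.68 ± 0.361 FPKM in MHCII-hi and 5.46 ± 2.05 FPKM in MHCII-lo (SD) and Atp5l2-ps 1.06 ± 0.431 FPKM in MHCII-hi and 2.03 ± 0.396 FPKM in MHCII-lo, with limma adjusted p-values of 0.0173 and 0.0238. Both calls depended on single libraries. Cox6c2 lost the threshold without MHCII-hi replicate 1 or 3 (adjusted p = 0.0501 and 0.0515), and Atp5l2-ps without MHCII-lo replicate 1 or 2 (limma, adjusted p = 0.0508 and 0.0790) and with the length and GC dependence removed (limma, adjusted p = 0.137). Atp5k-ps2 passed the minimum through MHCII-lo alone, with 0.39, 0.65 and 0.30 FPKM in MHCII-hi, against 1.23, 1.91 and 1.89 FPKM in MHCII-lo, so a fall of 0.88 ± 0.14 (SE) says little about it (limma, adjusted p = 0.00149). Atp5pb-ps had 8.99, 8.22 and 7.32 FPKM in the MHCII-hi libraries, against 7.38, 7.84 and 6.94 FPKM in the MHCII-lo libraries. Its groups overlapped and it did not pass (limma, adjusted p = 0.174), but it was called higher without MHCII-hi replicate 3, with median-of-ratios scaling and with the length and GC dependence removed (limma, adjusted p = 0.0374, 0.0412 and 0.00321). The remaining 5, Atp5l-ps1, Atp5l-ps2, Cox7c-ps1, Uqcrh-ps1 and Uqcrh-ps2, were listed at 0 to 1.41 FPKM. Over the 48 tested rows, 46 fell, 1 rose and 1 did not pass.

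Genes for assembly factors of the complexes are given beside the 40.5% of all tested genes called lower and the 27.2% called higher. For complexes II and III the shares lower were near that background. For complex II, 1 of 3 tested assembly factors fell, Sdhaf4, which averaged 2.54 ± 0.987 FPKM in MHCII-hi and 6.43 ± 0.840 FPKM in MHCII-lo (SD; limma, adjusted p = 0.00205). For complex III, 2 of 5 fell, Uqcc2 and Uqcc1, with changes of -0.91 and -0.42. Neither list had a gene that rose. For complex IV, 21 of 24 fell, 2 rose and 1 did not pass, with a median of -0.43. Slirp, which stabilizes mitochondrial mRNA, averaged 1.91 ± 0.425 FPKM in MHCII-hi and 5.62 ± 0.0854 FPKM in MHCII-lo (SD), and Cmc1 and Coa3, which act on the mitochondrially encoded core subunits, changed by -0.95 and -0.80. The 2 that rose were Cox20, at 12.1 FPKM in MHCII-hi against 8.21 FPKM in MHCII-lo, and the copper chaperone gene Sco2, at 1.89 FPKM in MHCII-hi against 1.09 FPKM in MHCII-lo, both named after their values were seen. For complex V, 3 of 4 listed genes fell, Tmem70, Atpif1 and Atpaf1, with changes of -0.80, -0.44 and -0.29, and Atpaf2 did not pass. Of these, Atpif1 codes for an inhibitor of the enzyme and not for an assembly factor.

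Among 19 tested genes for electron carriers around the complexes, for ubiquinone synthesis and for supercomplex factors, 13 fell, 1 rose and 5 did not pass. The median was -0.30, against 40.5% of all tested genes called lower, 27.2% higher and a median of -0.08. Most of the list were Coq and Pdss genes. Named outside the rule and after their values were seen, Cycs, for cytochrome c, changed by -0.44 (limma, adjusted p = 4.12e-06), and Coq8b was the gene that rose. Higd1a, a complex IV regulator, averaged 3.16 ± 0.568 FPKM in MHCII-hi and 7.33 ± 0.238 FPKM in MHCII-lo (SD), a change of -1.01 (limma, adjusted p = 0.000103). Etfa and Etfb, the flavoprotein that brings electrons from fatty acid oxidation to ubiquinone, changed by -0.89 and -0.91. The median of this list was smaller in size than that of the complexes. Of 14 tested regulators of nuclear respiratory genes or of mitochondrial gene expression, 5 were lower, 1 was higher and 8 did not pass the test. Tfam, Tfb1m, Tfb2m and Polrmt are of the second kind, and Tfam and Tfb1m were among the lower genes. The median of the list was -0.07 beside the -0.08 of all tested genes. The share lower was thus not above the 40.5% of all tested genes. Tfam, which packages and transcribes mitochondrial DNA, averaged 6.02 ± 0.211 FPKM in MHCII-hi and 10.4 ± 0.215 FPKM in MHCII-lo (SD; limma, adjusted p = 6.67e-06). Nrf1 averaged 4.10 ± 0.165 FPKM in MHCII-hi and 5.27 ± 0.146 FPKM in MHCII-lo (SD), a fall of 0.30 ± 0.04 (SE) (limma, adjusted p = 0.000909), and Myc rose, at 35.8 FPKM in MHCII-hi against 24.9 FPKM in MHCII-lo (limma, adjusted p = 3.36e-05). Gabpa, named outside the rule and after its value was seen because it binds the ETS core, averaged 16.98 ± 0.530 FPKM in MHCII-hi and 17.99 ± 1.11 FPKM in MHCII-lo (SD). It did not pass (limma, adjusted p = 0.198), and 397 exon bases of its locus overlap Atp5j on the opposite strand. Of the genes for the other chain of GABP, named in the same way, Gabpb2 changed by -0.25 and Gabpb1 did not pass (limma, adjusted p = 0.00057 and 0.204).

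Markers of cell types moved in the same comparison, and their part in the respiratory results was not tested. The counts stand beside 40.5% of all tested genes called lower and 27.2% called higher, and the shares lower in the neutrophil, the monocyte and the T and NK cell lists lay near that background. Of the 15 HSC markers 8 reached the minimum, of which 6 rose and 2 did not pass. Slamf1, Procr, Mecom, Tek, Fgd5, Hoxb5 and Ctnnal1 had means under 1 FPKM in both fractions, and the summed level of the list was 88.4 to 92.3 FPKM in MHCII-hi and 54.2 to 54.5 FPKM in MHCII-lo. The labelled cell type thus had little or no signal of several of its defining markers. The 12 B cell markers tested, of 13 listed, rose, with sums of 1060.0 to 1066 FPKM in MHCII-hi and 189 to 193 FPKM in MHCII-lo, as did the 9 plasma cell markers, with sums of 1491 to 1508 FPKM in MHCII-hi and 102 to 111 FPKM in MHCII-lo. Of these, Ms4a1, Ebf1, Fcmr, Bank1, Prdm1, Tnfrsf17 and Derl3 reached the minimum through MHCII-hi alone, which favours a higher call, so the sums are given beside the counts. The same holds, for example, for Hlf among HSC markers, C1qa, C1qb and C1qc among monocyte and macrophage markers, Cd4, Gp1ba and the immediate early gene Egr2. Single genes carried most of some sums. Ighm averaged 855 FPKM in MHCII-hi and 164 FPKM in MHCII-lo. Igha averaged 1033 FPKM in MHCII-hi and 26.3 FPKM in MHCII-lo, and Jchain 341 FPKM in MHCII-hi and 17.6 FPKM in MHCII-lo. Of 11 erythroid markers 10 fell, with sums of 604 to 628 FPKM in MHCII-hi and 868 to 888 FPKM in MHCII-lo. Neutrophil markers were abundant in both fractions, at 21744 to 22028 FPKM in MHCII-hi and 16554 to 16634 FPKM in MHCII-lo, with 7 of 12 higher and 4 lower. Of 12 monocyte, macrophage and dendritic cell markers 7 rose and 5 fell, with sums of 612 to 616 FPKM in MHCII-hi and 813 to 837 FPKM in MHCII-lo. T and NK cell markers had 6 of 10 higher and 3 lower, with sums of 184 to 195 FPKM in MHCII-hi and 191 to 195 FPKM in MHCII-lo, and megakaryocyte markers 3 of 6 higher and none lower, with sums of 146 to 150.4 FPKM in MHCII-hi and 75.5 to 77.5 FPKM in MHCII-lo. Most of the megakaryocyte sum was Thbs1, at 119 FPKM in MHCII-hi and 54.2 FPKM in MHCII-lo, while Pf4, Gp9 and Ppbp did not pass. Of 14 immediate early genes, which respond to handling, 13 rose and Atf3 fell, with sums of 3753 to 3764 FPKM in MHCII-hi and 2344 to 2375 FPKM in MHCII-lo. No listed marker was at 0 in all 6 libraries.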

How the data were processed

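RNA-seq of sorted cells from 6 samples gave 6 files, 1 per library. Per the labels' protocols, RNA was taken with an RNeasy Micro Kit and libraries were made with a stranded poly(A) kit. Per the submitters' processing notes, the tools were fastp, HISAT2 and StringTie, all without version, and the builds were GRCm38 and mm10. The deposited values were read as FPKM (fragments per kilobase, relative to the size of the library), which was inferred from the numbers since the headers name no unit. The depth is unknown, so no counting interval is given. Symbols were matched to GENCODE M21 on GRCm38.

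Libraries were grouped by cell subtype. Values became log2(FPKM + 1), and the 12295 genes that averaged 1 FPKM or more were fitted in limma 3.58.1 (R 4.3.3; trended empirical Bayes, two-sided test, threshold 0.05 after Benjamini-Hochberg adjustment over these genes), after the fit had been tested on simulated data. Log2 changes on this scale understate the change of low genes. Percentages of the MHCII-lo level are ratios of mean FPKM. The members, lists, naming rule and alternatives were chosen with earlier results of these data known, and no list was tested. The rule named, per complex, the 4 largest and 2 smallest changes, every gene that rose or did not pass and the isoforms, and up to 3 genes of each pathway list. Alternatives were pseudocounts of 0.1 and 0.01, no filter, a mean of at least 5 FPKM, quantile and median-of-ratios normalization, equal totals without immunoglobulin and mitochondrially encoded genes, no mean-variance trend, a replicate block, removal of the dependence on length and GC content, and each library left out. Software was Python 3.11.15, pandas 2.3.3, numpy 2.4.6 and, for figures, matplotlib 3.10.9.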

Additional observations from a re-analysis of the deposited data

How the results depend on the processing

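The number of tested rows lower in MHCII-hi was 42 to 46 under the 16 alternatives, and leaving out single libraries gave 44 to 46. Over all combinations of a single gene and 1 of the 16 alternatives, 741 log2 changes kept their side of the threshold, 21 lost it, 3 gained it and none reversed. The replicate block and the fit with no mean-variance trend leave log2 changes the same by construction, so no reversal was possible there. The median over the tested rows was -0.72 with pseudocounts of 0.1 and 0.01, -0.63 with no filter, -0.65 with quantile normalization, -0.59 with median-of-ratios scaling, -0.61 with equal totals outside immunoglobulin segments and mitochondrially encoded genes, and -0.55 with the dependence on length and GC content removed, against -0.68. For complex II it was -0.63 with quantile normalization, -0.57 with median of ratios, -0.59 with equal totals and -0.60 without the length and GC trend. For complex III median of ratios gave -0.56 and equal totals -0.58. For complex IV no filter, which adds Cox4i2 and Cox7a1, gave -0.53, median of ratios -0.65, equal totals -0.67 and removal of the length and GC trend -0.65. For complex V the last 3 settings gave -0.59, -0.61 and -0.52. Rows called higher numbered 2 with median of ratios, without the length and GC trend and without MHCII-hi replicate 3, Atp5pb-ps being added to Cox6a2. Where no construction is named, the cause was not tested.

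Leaving out each library in turn gave medians of -0.68 to -0.66 over the tested rows, -0.67 to -0.64 in complex II, -0.68 to -0.63 in complex III, -0.78 to -0.72 in complex IV and -0.68 to -0.66 in complex V, and 1 to 2 rows higher. Whether the replicate numbers pair the samples is not known. Deviations of same-numbered libraries correlated at 0.063, 0.002 and 0.08 across genes, and those of other pairs at -0.095 to 0.025. Libraries numbered 1 and 3 correlated best with their own number, and those numbered 2 did not. With 3 libraries per fraction such correlations cannot decide whether samples shared an animal or a sort. With the replicate number as a block 45 rows were lower and 1 higher, and Cox6a1 lost its call (limma, adjusted p = 0.0510). The medians could not change under this block, since each number stands for 1 library in each fraction. Over all genes the share of lower calls among calls was 59.8%, and 49.4% with median of ratios. Depth is unknown, so precision rests on the 3 libraries per fraction alone.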

Other observations

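Genes for enzymes and carriers that supply the respiratory complexes were counted beside the 40.5% of all tested genes called lower. Of 18 tested genes of the TCA cycle, pyruvate dehydrogenase and pyruvate carboxylase (Pcx), 15 fell and 3, Idh3g, Ogdh and Pcx, did not pass. The median log2 change of the list was -0.39. Idh3a, a subunit of the NAD-linked isocitrate dehydrogenase, averaged 11.6 ± 0.632 FPKM in MHCII-hi and 20.2 ± 0.184 FPKM in MHCII-lo (SD, n = 3), and Fh1, fumarate hydratase, averaged 13.8 ± 0.554 FPKM in MHCII-hi and 23.9 ± 0.257 FPKM in MHCII-lo. Dld, the lipoamide dehydrogenase shared by several matrix complexes, averaged 20.5 ± 0.395 FPKM in MHCII-hi and 34.7 ± 1.04 FPKM in MHCII-lo. Their changes were -0.75, -0.75 and -0.73, with limma adjusted p-values of 7.25e-06, 3.23e-06 and 2.14e-06.

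Of 15 tested carriers and channels of the mitochondrial membranes, 13 fell, 1 rose and 1, Slc25a1, did not pass, with a median of -0.45. Slc25a5, an ADP/ATP carrier that exports the product of complex V, averaged 175 ± 4.96 FPKM in MHCII-hi and 322 ± 1.82 FPKM in MHCII-lo (SD, n = 3), a change of -0.88 (limma, adjusted p = 2.60e-07). Slc25a4, another ADP/ATP carrier, changed by -0.87, and Vdac3, a channel of the outer membrane, by -0.91. The gene that rose was Ucp2, at 90.9 ± 1.25 FPKM in MHCII-hi and 85.4 ± 0.811 FPKM in MHCII-lo (limma, adjusted p = 0.00511), which was named after its value was seen.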
